A study of Mus musculus with 6 samples.

Results

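The genes described here are 37 genes of mature oligodendrocytes and of myelin, picked by name, and their probe sets were taken from the deposited expression table wherever the array annotation gave a probe set exactly 1 gene symbol. Of the 37 genes, 36 were measured, by 84 of the 45037 probe sets tested. Trf, the iron carrier transferrin, was not measured by this rule, because its probe set is annotated together with Srprb. Each measured gene is represented by its brightest probe set, judged by the mean of the 6 arrays, out of 18193 genes represented in the same way, and 34 of the 36 had a mean of at least 6 on the log2 scale. The exceptions, Gjc3 and Gjb1, lay closer to the lowest value of the table, 3.05.

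The arrays were Affymetrix Mouse Genome 430 2.0 arrays, and the samples were microdissections of the arcuate hypothalamus of mice aged 2 weeks. The groups were 3 samples of POMCDicerKO mice, which lack the microRNA-processing enzyme Dicer in cells that express Pomc, and 3 samples labelled Ctrl. Both groups were of mixed strain, C57Bl/6J with FVB/N and 129. The Cre driver of the deletion, the alleles that the controls carry, and whether any sample was pooled from several animals, are not stated in the labels. Oligodendrocytes are not the cells in which the label places the deletion.

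Oligodendrocytes wrap axons in myelin, a stack of cell membrane that is rich in cholesterol and galactolipids and is held together by a small set of abundant proteins. Their precursors pass through a committed, newly formed stage before the genes of mature myelin come on, under transcription factors such as Myrf and Sox10. In the mouse hypothalamus this takes place in the first weeks after birth, and the arcuate nucleus itself is thinly myelinated beside the fibre tracts around it. In bulk tissue, fewer cells of a type and less RNA per cell cannot be told apart.

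The RNA profiles of the arrays were close, with Pearson r over all probe sets of 0.995 to 0.997 for arrays of the same group and 0.994 to 0.997 for arrays of different groups (across probe sets, which are not independent replicates), and 0 pairs of arrays were identical. Over all 45037 probe sets, 0 passed limma's threshold of 0.05 after Benjamini-Hochberg adjustment, and 1098 (2.44%) had an unadjusted p under 0.05. The arcuate marker genes measured were present, with Pomc at 9.35, 9.71 and 9.43 on the POMCDicerKO arrays against 9.94, 10.87 and 9.76 on the control arrays, while Agrp, Kiss1 and Prlr had no probe set of their own symbol. Controls 1 and 2 stood apart from control 3 in meningeal genes, and POMCDicerKO array 1 stood apart in the myelin genes themselves.

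The promoters of Ermn, Mal and Opalin are shown, the 3 measured myelin genes with the smallest unadjusted p. Each covers 250 bases before to 50 bases after the annotated start, 5′ to 3′ on the strand of the gene, from RefSeq on GRCm38.p6. Capitals mark matches on either strand to CTGGCAC, a form of the motif bound by Myrf, to ACAAAG, a form of the SOX motif, and to CAGCTG, an E-box. Ermn lies at chr2:58052815-58053114 on the minus strand, Mal at chr2:127656646-127656945 on the minus strand and Opalin at chr19:41077064-41077363 on the minus strand.
Ermn: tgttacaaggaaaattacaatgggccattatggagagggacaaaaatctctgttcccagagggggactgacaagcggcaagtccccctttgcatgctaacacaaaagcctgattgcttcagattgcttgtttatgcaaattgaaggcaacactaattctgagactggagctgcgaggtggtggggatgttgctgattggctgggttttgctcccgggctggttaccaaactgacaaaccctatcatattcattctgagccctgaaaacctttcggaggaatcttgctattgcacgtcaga
Mal: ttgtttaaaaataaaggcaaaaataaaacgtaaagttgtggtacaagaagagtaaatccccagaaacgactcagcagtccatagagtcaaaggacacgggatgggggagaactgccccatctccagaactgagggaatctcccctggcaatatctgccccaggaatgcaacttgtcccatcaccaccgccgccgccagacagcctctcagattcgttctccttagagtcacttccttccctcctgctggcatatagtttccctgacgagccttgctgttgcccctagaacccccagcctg
Opalin: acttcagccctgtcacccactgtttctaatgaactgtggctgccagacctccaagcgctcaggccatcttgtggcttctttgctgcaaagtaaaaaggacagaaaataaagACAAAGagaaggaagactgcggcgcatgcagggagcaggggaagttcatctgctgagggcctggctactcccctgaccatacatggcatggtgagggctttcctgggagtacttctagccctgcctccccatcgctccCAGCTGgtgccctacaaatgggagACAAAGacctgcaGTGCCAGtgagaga
The Opalin window held 4 matches, ACAAAG starting at positions -139 and 24, CAGCTG at position -1 and CTGGCAC, on the opposite strand, at position 37, counted from the start. The Ermn and Mal windows held 0 matches, which says only that these letters are not in those windows. Of all 32851 promoter windows in the table, 5.01% held CTGGCAC, 18.7% ACAAAG and 16.3% CAGCTG. Of the 40 windows of 28 myelin genes found there, 5 held CTGGCAC (12.5%), 11 ACAAAG (27.5%) and 9 CAGCTG (22.5%). Some genes have several windows that overlap, so the windows of a gene are not separate counts. None of these motifs overlaps another by its letters in the Opalin window.

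Myelin genes were higher on average in the POMCDicerKO samples. Of the 36 measured genes, 35 had a log2 fold change (POMCDicerKO minus control) above 0, where 44.9% of all genes did. The median was 0.25, against -0.0099 over all genes, and the range ran from -0.059 for Apod to 0.63 for Mog. An unadjusted p under 0.05 with a higher POMCDicerKO mean was seen for 12 of the 36, against 0.94% of all genes, and 0 had one with a lower mean, against 1.47% of all genes. After adjustment over the whole array none of the 36 passed (limma, adjusted p = 1 for each). The groups did not overlap, with every POMCDicerKO array above every control array, for 6 of the 36, against 2.58% of all genes. These 6 were Ermn, Cldn11, Ugt8a, Gpr37, Elovl1 and Ndrg1. The genes were chosen with earlier results of these arrays known, and they vary together, so these shares describe the arrays and carry no test over the list.

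POMCDicerKO array 1 carried much of the difference. It held the highest of the 6 values for 31 of the 36 genes, where it did so for 15.5% of all genes, and it lay above all 3 controls for 33 of them, against 22.3% of all genes. POMCDicerKO array 3 lay above all 3 controls for 27 of the 36 (24.8% of all genes), but POMCDicerKO array 2 for only 7 (19.8% of all genes), and it lay within the control range for 26. Relative to the control mean, the median over the 36 genes was 0.52, 0.049 and 0.20 on POMCDicerKO arrays 1 to 3, and 0.065, -0.032 and -0.026 on control arrays 1 to 3. POMCDicerKO array 2 therefore lay below control 1. The spread was also wider among the POMCDicerKO samples, with a median SD per gene of 0.27, against 0.13 among controls, while over all genes the medians were 0.091 in POMCDicerKO and 0.085 in controls. Without POMCDicerKO array 1 the log2 fold change was smaller by over 1.5 times for 27 of the 36 genes and larger by as much for 0. The median was then 0.10, 32 of 36 genes were higher and 1 had an unadjusted p under 0.05 and a higher mean (0.808% of all genes). That count was 5 without POMCDicerKO array 3 (1.65% of all genes), 2 without control 2 (0.912%), 5 without control 3 (0.808%) and 1 with control 3 as the only control (1.3%). The count of genes with separate groups was 25 without POMCDicerKO array 2 (7.05% of all genes), 18 without control 1 (7.46% of all genes) and 25 with control 3 as the only control (21.3% of all genes).

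**Figure D1:**
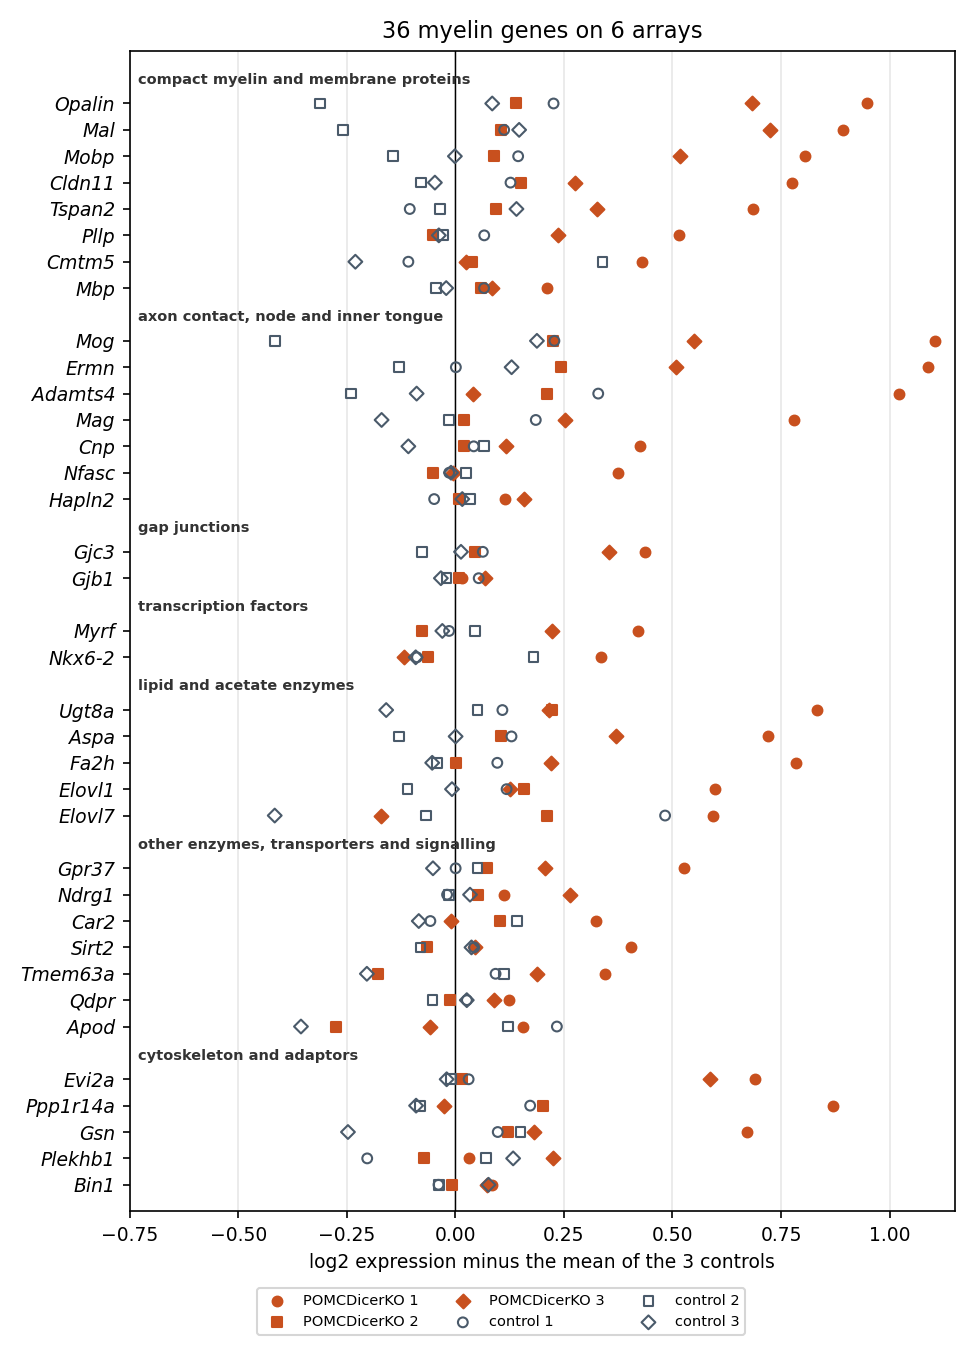
Log2 expression of each of the 36 measured myelin genes on each array, minus the mean of the 3 controls for that gene (x axis, log2 units), with genes in rows grouped by role. Filled symbols are the 3 POMCDicerKO arrays and open symbols the 3 control arrays; POMCDicerKO array 1 (filled circles) is the rightmost point for 31 of the 36 genes.

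Among compact myelin and membrane proteins, all 8 measured genes had higher POMCDicerKO means. Their median log2 fold change was 0.38, and 5 had an unadjusted p under 0.05. Of all genes, 44.9% had higher means and 0.94% were higher at that p. Mal, a raft-associated protein of myelin and of membrane sorting, read 12.12, 11.34 and 11.95 on the POMCDicerKO arrays, against 11.34, 10.97 and 11.38 on the control arrays. Arrays 1 and 3 of the POMCDicerKO group were high and array 2 lay among the controls, so the groups overlapped. Its log2 fold change was 0.57 ± 0.20 (SE) (95% interval 0.097 to 1.05), or 1.49-fold, and the two-sided exact permutation p was 0.3.

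Opalin, a transmembrane glycoprotein found in mature oligodendrocytes of the central nervous system, read 9.19, 8.38 and 8.93 in POMCDicerKO, against 8.47, 7.93 and 8.33 in controls. The pattern was that of Mal, with POMCDicerKO array 2 inside the control range and control 2 lowest. Its log2 fold change was 0.59 ± 0.22 (SE). Mobp, a small basic protein of compact myelin, read 12.56, 11.84 and 12.27 in POMCDicerKO, against 11.90, 11.61 and 11.75 in controls, a log2 fold change of 0.47 ± 0.17 (SE), and 0.30 without POMCDicerKO array 1. Control 1 lay above POMCDicerKO array 2 here too.

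Cldn11, the claudin that seals the lamellae of central myelin with tight junctions and is also made by arachnoid cells, was separate between the groups. It read 10.77, 10.15 and 10.27 in POMCDicerKO, against 10.12, 9.91 and 9.95 in controls, although POMCDicerKO array 2 exceeded control 1 by little. Its log2 fold change was 0.40 ± 0.16 (SE), and 0.21 without POMCDicerKO array 1, and its exact permutation p of 0.1 is the smallest that 3 against 3 samples can give. Tspan2, a tetraspanin of oligodendrocytes, read 11.07, 10.48 and 10.71 in POMCDicerKO, against 10.28, 10.35 and 10.53 in controls (log2 fold change 0.37, standard error 0.15, and 0.21 without POMCDicerKO array 1). Control 3 lay above POMCDicerKO array 2. Pllp (plasmolipin) and Cmtm5, both small membrane proteins with a MARVEL domain, gave 0.23 ± 0.13 (SE) and 0.16 ± 0.17 (SE).

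Mbp, the basic protein that draws the cytoplasmic faces of myelin together, was read near the top of the scale by its brightest probe sets. Its main probe set, 1433532_a_at, read 14.09, 13.94 and 13.97 in POMCDicerKO, against 13.95, 13.84 and 13.86 in controls, where the highest single value in the whole table was 14.35. The groups overlapped by POMCDicerKO array 2 and control 1, and the log2 fold change was 0.12 ± 0.071 (SE), and 0.072 without POMCDicerKO array 1. Of the 8 Mbp probe sets, the 5 with means above 13 gave log2 fold changes between 0.12 and 0.24. Probe set 1451961_a_at, at a lower mean of 10.84, gave 0.59 ± 0.17 (SE), with readings of 11.44, 10.90 and 11.06 in POMCDicerKO, against 10.57, 10.25 and 10.81 in controls. There the groups were separate. Of the other probe sets, 1425263_a_at gave 0.065 ± 0.18 (SE) and 1425264_s_at gave -0.035 ± 0.077 (SE). The probe sets of this gene thus differed in size and in sign, and which transcripts each of them detects was not analysed here.

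**Figure D2:**
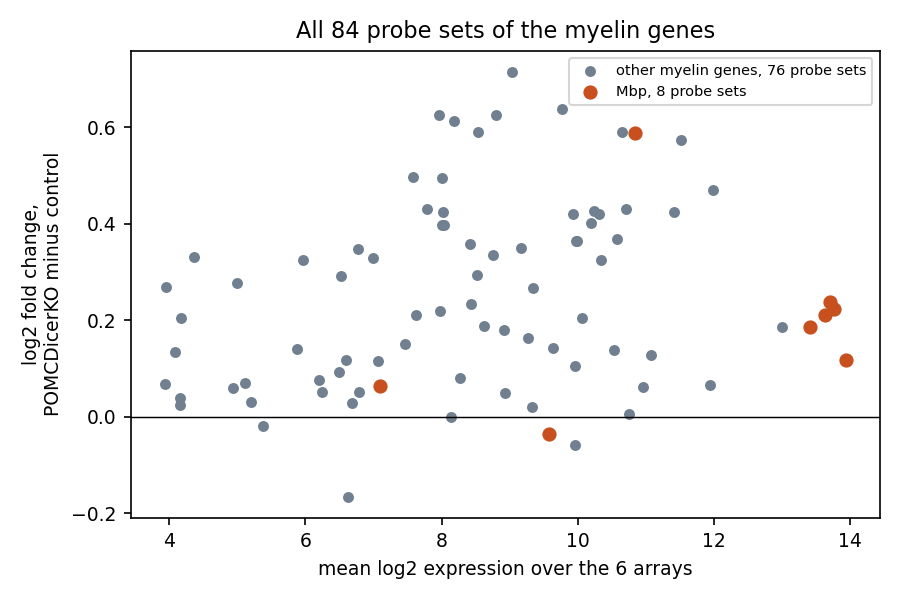
Log2 fold change, POMCDicerKO minus control (y axis), against the mean log2 expression over the 6 arrays (x axis) for all 84 probe sets of the myelin genes. Orange points are the 8 Mbp probe sets; the 5 with means above 13 lie between 0.12 and 0.24, and the one at 10.84 lies at 0.59.

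Over all 84 probe sets, 79 had a log2 fold change above 0, against 50.6% of all probe sets. An unadjusted p under 0.05 with a higher POMCDicerKO mean was seen for 29, against 1.24% of all probe sets, and separate groups for 18, against 3.14%. Probe sets of a gene were read on the same 6 arrays and are not separate evidence. Of 17 genes with several probe sets at a mean of at least 6, Mbp and Ndrg1 had both signs. Of the 5 Mobp probe sets, 2 gave larger values than the main one and 2 smaller, from 0.33 to 0.72. Both other Cnp probe sets gave larger values than its main one, at 0.20 and 0.36.

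Genes of the axon-facing and outer layers of myelin and of the node were higher on average for 7 of 7 (44.9% of all genes). Their median was 0.35, and 2 were higher at an unadjusted p under 0.05 (0.94% of all genes). Ermn, a cytoskeletal protein of late oligodendrocytes, had the smallest p of the main probe sets (limma's unadjusted p = 0.0152). It read 8.96, 8.12 and 8.38 in POMCDicerKO, against 7.88, 7.74 and 8.004 in controls, and the groups were separate. Its log2 fold change was 0.61 ± 0.20 (SE) (95% interval 0.16 to 1.07), or 1.53-fold, and 0.38 without POMCDicerKO array 1. Its second-brightest probe set, 1440902_at, gave 0.63 ± 0.21 (SE).

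Mog, an immunoglobulin-like protein of the outermost myelin surface, had the widest interval of the 12 genes with an unadjusted p under 0.05. It read 9.59, 8.72 and 9.04 in POMCDicerKO, against 8.72, 8.07 and 8.68 in controls. Control 2 was the low array and POMCDicerKO array 1 the high one, and POMCDicerKO array 2 lay with controls 1 and 3. The log2 fold change was 0.63 ± 0.25 (SE), or 0.39 without POMCDicerKO array 1. Mag, the sialic acid-binding adhesion protein that faces the axon, read 9.77, 9.01 and 9.24 in POMCDicerKO, against 9.17, 8.97 and 8.82 in controls. The groups overlapped, and the log2 fold change of 0.35 ± 0.19 (SE) was 0.14 without POMCDicerKO array 1.

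Cnp, the cyclic nucleotide phosphodiesterase that keeps cytoplasmic channels in myelin open, read 13.34, 12.94 and 13.03 in POMCDicerKO, against 12.96, 12.98 and 12.81 in controls. POMCDicerKO array 1 alone stood clear of the controls by more than the spread of the others. The log2 fold change was 0.19 ± 0.11 (SE), and 0.069 without that array. The perinodal genes Hapln2 and Nfasc gave smaller values at their main probe sets. Hapln2, a link protein of the nodal matrix, was at 0.093 ± 0.068 (SE). Nfasc, the neurofascin gene, whose forms in glia and in neurons anchor the paranode and the node, was at 0.11 ± 0.11 (SE). Of the other Nfasc probe sets, 1459357_at gave 0.22 ± 0.078 (SE) with separate groups, and 1456068_at gave 0.080 ± 0.080 (SE) with groups that overlapped. Adamts4, a matrix protease of oligodendrocytes, was at 0.42 ± 0.26 (SE), with POMCDicerKO array 1 at 8.83 and the other 5 arrays between 7.57 and 8.14.

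The 2 gap junction genes differed in level and in fold change. Gjc3, which encodes connexin 29 of oligodendrocytes, read 5.29, 4.90 and 5.21 in POMCDicerKO, against 4.92, 4.78 and 4.87 in controls, a log2 fold change of 0.28 ± 0.11 (SE). Its level was close to the low end of the scale, where differences are compressed. The other Gjc3 probe set, 1445523_at, had a similar mean of 4.93 and gave 0.059 ± 0.092 (SE), and the groups overlapped there. Gjb1, which encodes connexin 32, was at 0.031 ± 0.062 (SE).

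Of the transcription factors, Myrf, the regulator required for the myelin gene programme, read 8.95, 8.45 and 8.75 in POMCDicerKO, against 8.51, 8.57 and 8.50 in controls. POMCDicerKO arrays 1 and 3 were above and array 2 below all controls. The log2 fold change was 0.19 ± 0.12 (SE), and its 95% interval ran from -0.091 to 0.47. It was 0.073 without POMCDicerKO array 1 and 0.32 without array 2. Nkx6-2, a homeobox factor of oligodendrocytes and of some neurons, was at 0.051 ± 0.13 (SE).

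The lipid and acetate enzymes were higher on average for 5 of 5 (44.9% of all genes), with a median of 0.34. Of them, 2 were higher at an unadjusted p under 0.05 (0.94% of all genes). Ugt8a, which makes galactosylceramide, the main glycolipid of myelin, read 12.04, 11.43 and 11.42 in POMCDicerKO, against 11.31, 11.26 and 11.04 in controls. The groups were separate, with arrays 2 and 3 of the POMCDicerKO group close to each other and array 1 above them. The log2 fold change was 0.42 ± 0.17 (SE), and 0.22 without POMCDicerKO array 1. At the other Ugt8a probe set, 1419064_a_at (0.50 ± 0.21, SE), the groups overlapped. Control 3, at 7.72, lay there above POMCDicerKO arrays 2 and 3, at 7.68 and 7.67. Aspa, which releases acetate from N-acetylaspartate for lipid synthesis, read 8.55, 7.94 and 8.20 in POMCDicerKO, against 7.96, 7.70 and 7.83 in controls, a log2 fold change of 0.40 ± 0.15 (SE), and 0.24 without POMCDicerKO array 1. Control 1 lay just above POMCDicerKO array 2. Fa2h, the fatty acid hydroxylase of myelin lipids, was at 0.34 ± 0.18 (SE). Of the fatty acid elongases, Elovl1 was at 0.29 ± 0.13 (SE) and Elovl7 at 0.21 ± 0.25 (SE). The Elovl1 groups were separate at this main probe set and at 1455994_x_at (0.36 ± 0.13, SE). They overlapped at 1425676_a_at (0.15 ± 0.099, SE) and 1443820_x_at (0.21 ± 0.12, SE).

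Of the other enzymes, transporters and signalling genes, 6 of 7 measured had higher POMCDicerKO means (median 0.13), against 44.9% of all genes. Gpr37, an orphan receptor of the oligodendrocyte lineage, read 9.73, 9.28 and 9.41 in POMCDicerKO, against 9.21, 9.26 and 9.15 in controls, and the groups were separate. Its log2 fold change was 0.27 ± 0.12 (SE), and 0.14 without POMCDicerKO array 1. Ndrg1, a cytoplasmic protein that responds to stress and differentiation, read 9.67, 9.61 and 9.82 in POMCDicerKO, against 9.54, 9.55 and 9.59 in controls, where array 3 and not array 1 was the highest. The log2 fold change was 0.14 ± 0.074 (SE), and 0.082 without POMCDicerKO array 3. The groups were separate at this main probe set of Ndrg1 only. They overlapped at 1420760_s_at (0.020 ± 0.077, SE), 1450977_s_at (0.12 ± 0.11, SE), 1423413_at (0.029 ± 0.12, SE) and 1450976_at (-0.00086 ± 0.073, SE).

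Apod, a lipid-binding apolipoprotein that is also made by fibroblasts and pericytes, was the 1 gene lower on average. It read 10.14, 9.71 and 9.93 in POMCDicerKO, against 10.22, 10.11 and 9.63 in controls, so that the groups interleaved. Its log2 fold change of -0.059 ± 0.17 (SE) was 0.049 without POMCDicerKO array 2, 0.058 without control 1 and 0.0017 without control 2. The carbonic anhydrase Car2 was at 0.14 ± 0.10 (SE), the deacetylase Sirt2 at 0.13 ± 0.12 (SE), and the ion channel gene Tmem63a at 0.12 ± 0.15 (SE). Qdpr, which recycles tetrahydrobiopterin, was at 0.067 ± 0.067 (SE).

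The cytoskeletal and adaptor genes were higher on average for 5 of 5 (44.9% of all genes), with a median of 0.33. Evi2a alone was higher at an unadjusted p under 0.05 (0.94% of all genes). Evi2a, a membrane protein gene that lies within an intron of Nf1, read 8.26, 7.59 and 8.16 in POMCDicerKO, against 7.60, 7.56 and 7.55 in controls. Its controls lay within a narrow range, POMCDicerKO array 2 among them, and the log2 fold change was 0.43 ± 0.16 (SE). Ppp1r14a, a phosphatase inhibitor, was at 0.35 ± 0.21 (SE), and Gsn, the actin-severing gelsolin, at 0.33 ± 0.17 (SE). Plekhb1 and Bin1, a membrane-bending adaptor, were at 0.062 ± 0.11 (SE) and 0.050 ± 0.067 (SE).

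**Figure D3:**
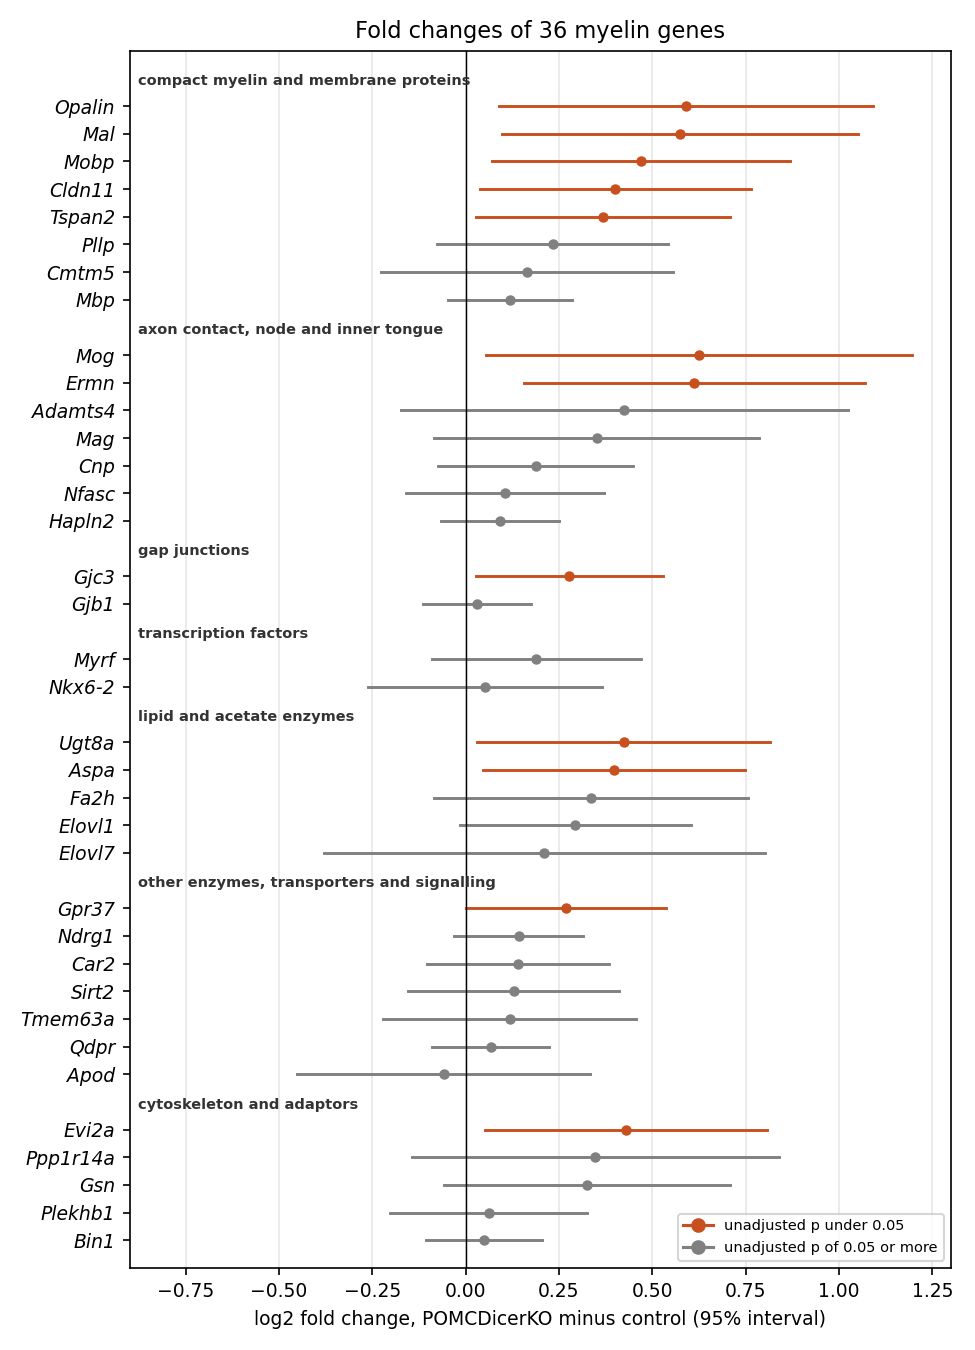
Log2 fold change of each of the 36 measured myelin genes, POMCDicerKO minus control (x axis), as points with limma's 95% intervals, grouped by role. Orange marks the 12 genes with an unadjusted p under 0.05, all of them higher in POMCDicerKO; none passed after adjustment over all probe sets.

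Genes known mainly from oligodendrocytes had a higher median log2 fold change than those well known in other brain cells, but not more genes with separate groups. The 23 genes of the first kind had a median log2 fold change of 0.34. Of these, 23 were higher on average (44.9% of all genes) and 10 were higher at an unadjusted p under 0.05 (0.94% of all genes). The 13 measured genes of the second kind were Gsn, Car2, Apod, Qdpr, Nfasc, Bin1, Sirt2, Ndrg1, Plekhb1, Cmtm5, Evi2a, Cldn11 and Elovl1. They had a median of 0.14, with 12 higher and 2 at an unadjusted p under 0.05, to be read against the same shares of all genes. Their values ran from -0.059 for Apod to 0.43 for Evi2a, with Cldn11 at 0.40 and Elovl1 at 0.29. The groups did not overlap for 3 genes of the first kind and 3 of the second, against 2.58% of all genes. On POMCDicerKO array 1 the medians relative to the control mean were 0.68 and 0.37. The difference between these lists was not tested.

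Medians of genes of earlier stages of the lineage lay closer to 0 than that of the myelin genes, a difference that was not tested. Of 9 genes of precursor cells, 5 were higher and 4 lower on average, with a median of 0.011, and 0 had an unadjusted p under 0.05. Those with the smallest p were Ptprz1, a receptor phosphatase of precursors, at -0.15 ± 0.087 (SE), and Sox10, the factor of the whole lineage, at 0.14 ± 0.12 (SE). Of 7 measured genes of committed and newly formed oligodendrocytes, 2 were higher and 5 lower, with a median of -0.068, and 0 had an unadjusted p under 0.05. Bmp4, a secreted signal made at this stage, was at -0.17 ± 0.17 (SE) and the kinase Fyn at -0.068 ± 0.078 (SE). On POMCDicerKO array 1 these lists also stood above the control mean, at 0.13 for precursor cells and 0.21 for newly formed cells, against -0.070 and -0.12 on array 2 and -0.044 and -0.19 on array 3. On the 3 controls the precursor list ran from -0.017 to 0.029 and the newly formed list from -0.098 to 0.047.

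The supply of myelin lipids was measured by 14 cholesterol synthesis genes and 12 sphingolipid and galactolipid enzymes. Of the cholesterol genes, 13 were higher (44.9% of all genes) and 1 lower on average, with a median of 0.083. Only 1, Sc5d, a desaturase near the end of the pathway, was higher at an unadjusted p under 0.05 (0.94% of all genes). It was at 0.34 ± 0.065 (SE) (adjusted p = 1). Fdps, which makes farnesyl diphosphate, was at 0.15 ± 0.13 (SE). On POMCDicerKO array 3 the cholesterol list lay below the control mean, unlike the myelin genes: the cholesterol medians were 0.32, 0.097 and -0.18 on POMCDicerKO arrays 1 to 3, and 0.069, -0.062 and -0.034 on control arrays 1 to 3. Of the sphingolipid and galactolipid enzymes, 6 were higher and 6 lower, with a median of 0.016. Cers2, which makes the very long chain ceramides of myelin, was at 0.18 ± 0.089 (SE), and the glycolipid transfer protein Gltp at 0.21 ± 0.15 (SE). Of 10 axonal partners of myelin, 9 had higher POMCDicerKO means (median 0.067), against 44.9% of all genes, and 0 had an unadjusted p under 0.05. The neurofilament genes Nefl and Nefm were at 0.11 ± 0.078 (SE) and 0.31 ± 0.24 (SE). Whether any of these lists differed from the myelin genes was not tested.

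**Figure D4:**
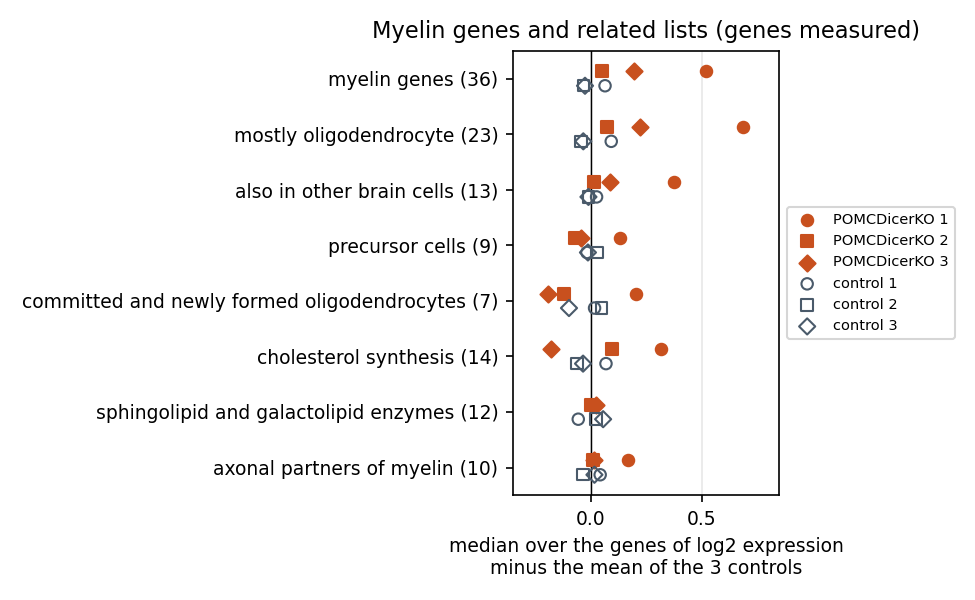
Median over the genes of each list of log2 expression minus the mean of the 3 controls (x axis) on each array; the number of genes measured is in brackets, filled symbols are POMCDicerKO arrays and open symbols controls. The myelin genes stand at 0.52, 0.049 and 0.20 on POMCDicerKO arrays 1 to 3, while the precursor list stands at 0.13, -0.070 and -0.044.

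Some markers of the dissected region were extreme on POMCDicerKO array 1 and others were not. Hcrt, the orexin gene of the lateral hypothalamus, read 10.72, 8.20 and 8.62 in POMCDicerKO, against 8.60, 7.78 and 9.48 in controls, and Pmch, the melanin-concentrating hormone gene of the same area, read 13.22, 11.28 and 12.32 in POMCDicerKO, against 12.69, 10.91 and 13.06 in controls. Array 1 was thus the highest of the 6 for both, and it was also the lowest for Npy, a peptide of arcuate neurons, at 10.38, where the other POMCDicerKO arrays read 11.79 and 11.86 and the controls between 11.60 and 12.32. Lhx9, the third lateral hypothalamus gene, read 5.06 on array 1, below its control mean of 5.11, and Cartpt, another arcuate peptide gene, read 10.38 there, above its control mean of 10.28. Array 1 was below the control mean for 6 of the 7 arcuate genes and the lowest of the 6 arrays for 4. POMCDicerKO array 3 was below that mean for all 7 and lowest for 2, and POMCDicerKO array 2 below it for 4 and lowest for 0. Of the 3 lateral hypothalamus genes, POMCDicerKO arrays 1, 2 and 3 were above the control mean for 2, 1 and 3. All 3 lateral hypothalamus genes measured were higher on average (medians per array from -0.42 to 1.01 in POMCDicerKO and from -0.84 to 0.84 in controls). Of 7 measured arcuate genes, 7 were lower on average (from -0.44 to -0.13 in POMCDicerKO and from -0.22 to 0.13 in controls). Pomc is among these 7 and marks the cells in which the label places the deletion. For Pomc, therefore, region and genotype cannot be told apart. On POMCDicerKO arrays 1 to 3 the lateral hypothalamus medians were 1.01, -0.42 and 0.10, beside 0.52, 0.049 and 0.20 for the myelin genes. On control arrays 1 to 3 they were 0.18, -0.84 and 0.84, beside 0.065, -0.032 and -0.026. Control 2 was the lowest array for both lists, and control 3 was the highest control for the lateral hypothalamus genes only. The part of the dissection in the myelin values was not tested.

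Markers of other cells that could bring myelin transcripts or share these genes were set beside them. Of 4 measured Schwann cell genes, 3 were higher and 1 lower on average, with medians per array from -0.034 to 0.042 in POMCDicerKO and from -0.054 to 0.00089 in controls. All 11 meningeal and fibroblast genes were lower on average, with a median of -0.63 and medians per array from -1.14 to -0.41 in POMCDicerKO and from -0.83 to 0.45 in controls, with control 3 the low one. Without controls 1 and 2, so that control 3 was the only control and was assumed to vary like the POMCDicerKO arrays, the median of the myelin genes was 0.31 and 34 of 36 were higher. Neuronal markers, 5 higher and 3 lower of 8, had a median of 0.014, and astrocyte markers, 4 higher and 4 lower of 8, a median of -0.0091.

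**Figure D5:**
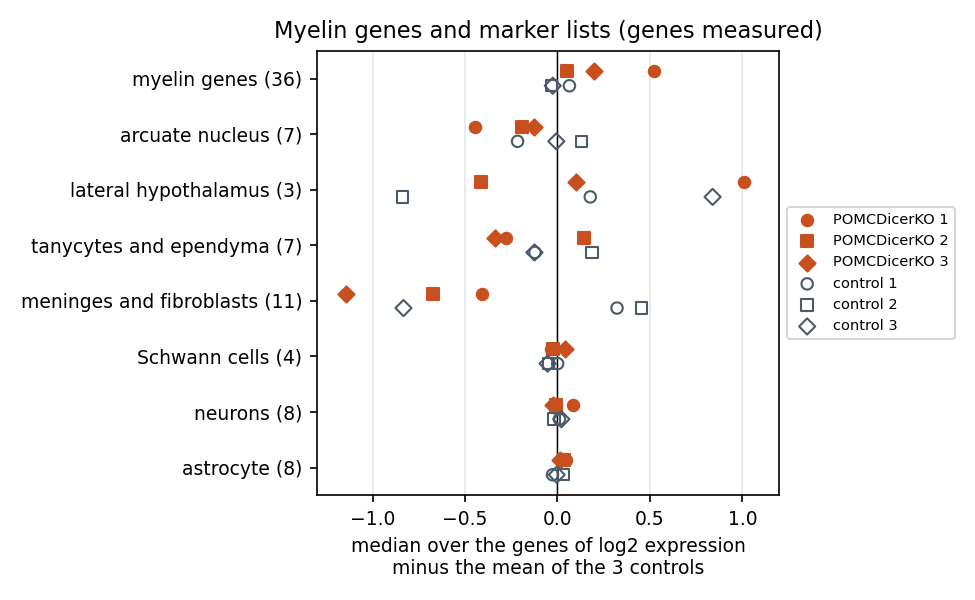
Median over the genes of each marker list of log2 expression minus the mean of the 3 controls (x axis) on each array, with the myelin genes for comparison; the number of genes measured is in brackets, filled symbols are POMCDicerKO arrays and open symbols controls. POMCDicerKO array 1 is the highest array for the myelin genes (0.52) and for the lateral hypothalamus genes (1.01) and the lowest for the arcuate genes (-0.44).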

How the data were processed

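The table the authors deposited gives log2 expression for every probe set on every array; the submitters' processing notes name it the output of RMA (affy package; versions not stated). RMA includes quantile normalisation, so a shift shared by most transcripts of an array is removed. Array medians lay between 6.02 and 6.05. No depth exists for arrays, and their number limits the precision. There were 0 unused sample columns, and groups came from the sample titles. The labels name no batch.

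Of 45101 probe sets, 64 were AFFX controls and not analysed. GEO's platform annotation pairs 34945 of the others with 1 symbol and 932 with several, and does not list 9160. For current symbols, Entrez identifiers were matched to RefSeq (GRCm38.p6), which held 34741.

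The comparison used limma 3.58.1 (lmFit, eBayes; R 4.3.3) on all probe sets with Benjamini-Hochberg adjustment, tested on simulated data. Exact permutation tests were two-sided (smallest p = 0.1). P-values measure the spread between these samples, which may be technical. The members, gene lists and tests were chosen with earlier results of these data known. Named with every array were 8 core genes, the 12 with the smallest p and any lower on average. So were genes with probe sets of both signs at a mean of at least 6. Up to 2 genes of each related list were named with their log2 fold change. Alternatives were another centring, quantile normalisation, a mean filter, other priors, array weights, gene means, a replicate block and leaving out arrays.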

Additional observations from a re-analysis of the deposited data

How the results depend on the processing

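The limits are those of 3 against 3 arrays, of which POMCDicerKO array 1 decides much of the size of the myelin difference. The median log2 fold change of the myelin genes was above 0 under every alternative run, from 0.10 to 0.36 with single arrays left out, and 32 to 36 of the genes were then higher on average. The number with an unadjusted p under 0.05 and a higher mean ran from 1 to 17 with single arrays left out. It was 1 without POMCDicerKO array 1 (0.808% of all genes) and 17 without POMCDicerKO array 2 (1.25%). It was 5 with array weights (1.08% of all genes) and 19 with a replicate block (1.16%). The number with separate groups ran from 6 to 25 with single arrays left out, at 25 without POMCDicerKO array 2 (7.05% of all genes) and 18 without control 1 (7.46%). It was 25 without controls 1 and 2, an alternative chosen after seeing the data, where 21.3% of all genes were separate. These counts of 25 thus stand against unlike shares. Over all probe sets, 0 to 2 passed limma's adjusted threshold with single arrays left out and 1 without controls 1 and 2, and the number with an unadjusted p under 0.05 ran from 874 to 2075, was 1868 without controls 1 and 2 and 427 when only probe sets with a mean of at least 6 were tested, fewer being tested there. The 18 genes given array by array kept their sign in 265 of 269 alternative values, and 0 passed the adjusted threshold. The 4 exceptions were of Apod, which ran from -0.24 to 0.058 with single arrays left out, at 0.049 without POMCDicerKO array 2, 0.058 without control 1, 0.0017 without control 2 and 0.30 without controls 1 and 2. The cause of these shifts was not tested. Same-numbered samples share only a number: their deviations from the group means correlated at 0.13, 0.079 and 0.12 for numbers 1 to 3, each sample most with its own number, a hint from the data and not from the design. The replicate block gave 0 probe sets past the adjusted threshold, 1396 at an unadjusted p under 0.05 and 35 of 36 myelin genes higher on average.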

Other observations

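Microglia genes and endothelial and pericyte genes had medians closer to 0 than the myelin genes on these arrays, a difference that was not tested. Of 10 microglia genes, 9 had higher POMCDicerKO means, against 44.9% of all genes. The median log2 fold change was 0.096, and 0 had an unadjusted p under 0.05. Tyrobp, a signalling adaptor of microglia, was at 0.16 ± 0.097 (SE), and the protease gene Ctss at 0.10 ± 0.063 (SE). Of 9 measured endothelial and pericyte genes, 7 had higher POMCDicerKO means (median 0.14), against 44.9% of all genes. Separate groups were seen for 3 of the 9 with POMCDicerKO higher, against 6 of the 36 myelin genes and 2.58% of all genes. They were seen for 1 of the 9 with POMCDicerKO lower, against 703 of all 18193 genes. The endothelial growth factor receptor gene Flt1 was at 0.19 ± 0.096 (SE), and Pdgfrb, the growth factor receptor of pericytes, at -0.28 ± 0.11 (SE). Of 7 tanycyte and ependymal genes, 6 were lower on average, with a median of -0.25, against 0.25 for the myelin genes. Crym, a thyroid hormone-binding protein of tanycytes, read 7.41, 8.57 and 7.87 in POMCDicerKO, against 8.35, 8.61 and 8.30 in controls, lowest on the array with the highest myelin values. The choroid plexus list, 2 higher and 4 lower of 6, had a median of -0.082, and the 5 measured blood genes, all lower on average, a median of -0.15. None of these genes passed limma's adjusted threshold.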
